A study of Sus scrofa with 32 samples.

Results

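The genes described here are the cell division genes that 32 RNA-seq libraries of pig loin muscle hold under a symbol of the centromere protein (CENP), minichromosome maintenance (MCM), aurora kinase, BUB, CDC, cyclin A, B and E, CDK, condensin (NCAP), origin recognition (ORC) and E2F families, together with TOP2A, TPX2 and GTSE1. The rule that chose them uses symbols and no measured value, though it was set with earlier results of these data known, and 96 of the 17930 gene identifiers with reads matched. Of these, 36 act in mitosis and 26 in DNA replication or the entry into it, and the other 34 carry a family name but mostly serve other processes. The muscle is the longissimus dorsi of wild type pigs aged 6 months, with 8 libraries in each of 4 breed groups. DLDPL pigs are Duroc x Landrace x Dapulian, LDPL pigs are Landrace x Dapulian, DPL pigs are Dapulian, an indigenous Chinese breed, and L pigs are Landrace, a lean commercial breed. The series asks how transcription in muscle varies between these breeds.

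A dividing cell first licenses its replication origins with ORC, CDC6 and the MCM helicase, fires them under cyclin E, CDC7 and CDC45, and later enters mitosis under CDK1 with cyclin B. E2F factors switch many of these genes on or off around the G1/S boundary. Muscle fibres are multinucleate and have left the cell cycle, so dividing cells in adult muscle are satellite cells and the cells of vessels, connective tissue and blood. In bulk tissue, fewer cells of a type and less RNA per cell cannot be told apart.

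In units of 1000000, each library held 21.7 to 29.7 uniquely mapped reads, and levels are given as CPM (reads per 1000000 of the library total, after TMM scaling of that total), as mean ± SD over 8 libraries or as the lowest, the median and the highest library. Of the 96 genes, 81 had enough reads to be tested, namely 29 mitotic, 20 replication and 32 others. The edgeR quasi-likelihood test was adjusted over all 12821 tested genes with a threshold of 0.05, which is what is meant below by a call, and log2 changes are given ± SE. Where nothing says that libraries came from separate preparations, the p-values measure the spread between these libraries, which may in part be technical. The libraries carried fibre markers throughout, with ACTA1, the skeletal actin, at a median of 50993 CPM in DLDPL, 54312 in LDPL, 37144 in DPL and 83484 in L. L replicate 2 held the highest level of MYH3, the embryonic myosin, at 226 CPM, and the highest summed macrophage and lymphocyte markers of the L libraries. The share of reads on the 13 mitochondrially encoded genes was 22.7 ± 4.86% in DLDPL, 22.9 ± 4.37% in LDPL, 31.3 ± 5.59% in DPL and 20.8 ± 2.58% in L. In genes of at least 3000 bases the median share of the gene length covered by reads was 82.0 ± 2.23% in DLDPL, 81.8 ± 1.55% in LDPL, 80.0 ± 3.23% in DPL, where replicate 23 was lowest at 73.4%, and 83.2 ± 1.87% in L. The part of both measures in the results below was not tested. The labels give no batch. The library numbers of DLDPL, LDPL and DPL do not repeat among these 3 groups, whereas L shares 5 numbers with LDPL and 1 with DPL, so that a different handling of L and its breed cannot be told apart.

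Many genes of mitosis had their lowest level in DPL muscle and their highest in L muscle, among them TOP2A, CENPF, CDC20 and CCNB1, with both crosses between. Of the 29 tested mitotic genes, 12 were lower and 1 higher in DPL than in L. Of the 20 tested replication genes, 4 were lower and 1 higher. The filter on low counts needs reads in about as many libraries as a group holds, so a gene low in DPL could be tested through L. CDC20 and NCAPG, for example, reached at most 0.206 and 0.26 CPM in DPL. The part of this filter in the counts, medians and ranks of tested genes was not tested. The median log2 change was -0.26 over the mitotic genes, -0.24 over the replication genes and -0.02 over all genes tested. Among all tested genes 38% were called in this comparison, 19.1% higher and 18.9% lower, so the share of called genes was near the background for the 81 cell division genes as a whole (30, of which 8 were higher and 22 lower). By class, 44.8% of the mitotic genes and 25% of the replication genes were called, the latter below the background. In the test of any difference over the 4 groups 32 of the 81 were called, against 37.4% of all tested genes. By mean level, 16 of the 29 mitotic genes were highest in L and 17 were lowest in DPL. Of the 20 replication genes, 11 were highest in L and 8 lowest in DPL. Of the 32 other genes, 14 were highest in L and 5 lowest in DPL. These ranks were not counted over all tested genes, so they have no background share. The 2 classes were not tested against each other.

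**Figure D1:**
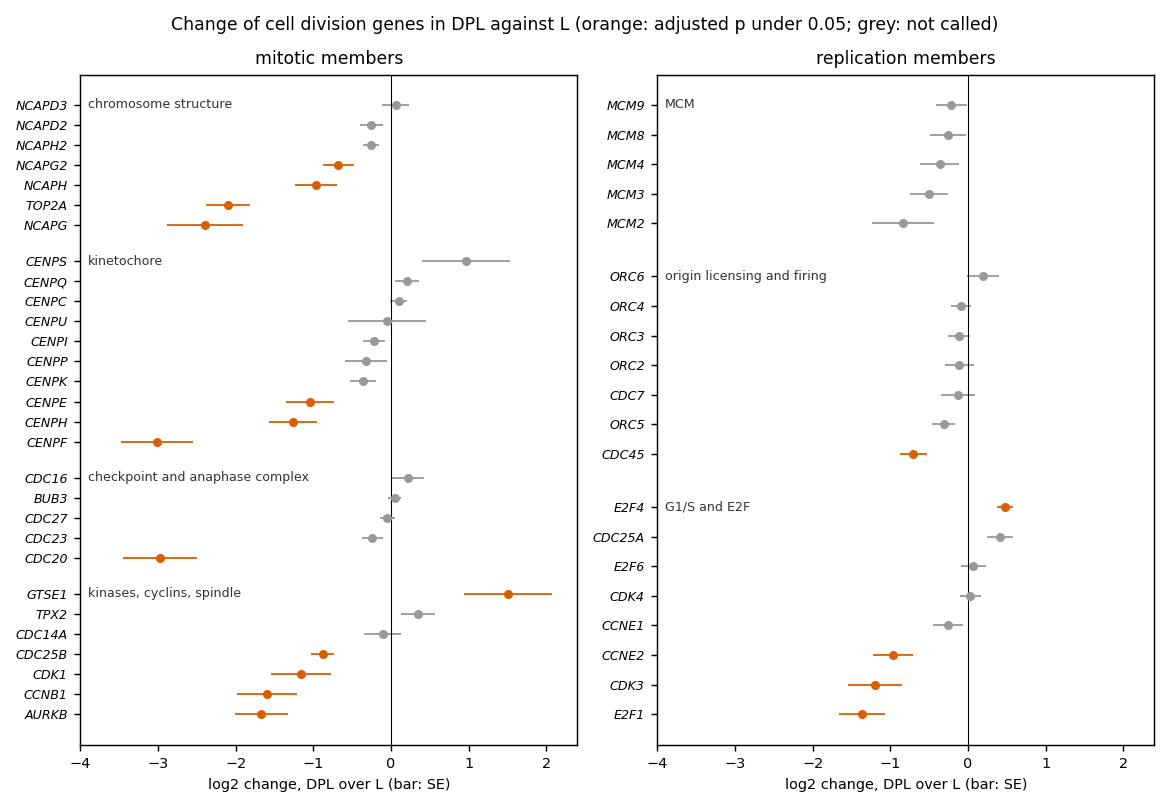
Log2 change of each tested mitotic gene (left) and replication gene (right) in DPL over L, with its SE, sorted within classes of function. Orange points passed an adjusted p of 0.05 in edgeR, and the largest negative changes are those of CENPF (-3.01), CDC20 (-2.97), NCAPG (-2.39) and TOP2A (-2.10).

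On deposited RPKM, which are not rescaled for composition, the balance of the same comparison was different. limma on log2(RPKM + 1) called 2 cell division genes higher and 31 lower, and over all genes 1277 higher and 3412 lower, against 2455 and 2418 in the edgeR test on counts. The median log2 change of all genes was then -0.12, and -0.18 with a pseudocount of 0.1. Directions below are those of the TMM-scaled counts. All 12 mitotic falls were also called on both RPKM scales.

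Of 7 tested genes of chromosome structure, 4 were lower in DPL and 0 higher, with a median log2 change of -0.68. This is 57.1% called, against 38% of all tested genes (18.9% lower). Condensin compacts mitotic chromosomes, and topoisomerase II alpha, the product of TOP2A, untangles the sister DNA molecules. TOP2A was at 0.454, 1 and 2.48 CPM in DPL (lowest, median and highest library), and at 2.17, 4.33 and 7.40 CPM in L. The highest DPL library lay just above the lowest L library, and all other DPL libraries lay below all L libraries. The log2 change was -2.10 ± 0.29 (edgeR adjusted p = 7.58e-07), a level 4.29-fold lower in DPL. Among the subunits of condensin I, NCAPG was at 0, 0.12 and 0.26 CPM in DPL and at 0.118, 0.719 and 1.37 CPM in L (log2 change -2.39 ± 0.49, adjusted p = 0.000235). No read of it was found in 2 DPL libraries, where a count of 0 allows up to 3 reads, or 0.106 and 0.162 CPM in these libraries. Reads of NCAPG may include those of DCAF16 and LCORL, which overlap it, since the libraries carry no strand. NCAPH, also of condensin I, was at 0.509 ± 0.141 CPM in DPL and 0.994 ± 0.239 CPM in L (log2 change -0.97 ± 0.27, adjusted p = 0.00453). NCAPG2 of condensin II was at 1.96 ± 0.686 CPM in DPL and 3.13 ± 0.601 CPM in L (log2 change -0.68 ± 0.20, adjusted p = 0.00847). NCAPD2, NCAPH2 and NCAPD3, the remaining condensin subunits, had log2 changes of -0.25, -0.26 and 0.06 and were not called.

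At the kinetochore, which ties chromosomes to the spindle, 3 of 10 tested genes were called, all lower in DPL. This share, 30%, was below the 38% of all tested genes. The 3 genes were CENPF, the motor CENPE and the inner protein CENPH, and most inner proteins were not called. CENPF, a large protein that joins the kinetochore before mitosis, was at 0, 0.219 and 0.617 CPM in DPL and at 1.07, 1.82 and 2.63 CPM in L. The groups did not overlap, and 3 DPL libraries had no read. The log2 change was -3.01 ± 0.46 (adjusted p = 4.63e-06), a level 8.08-fold lower in DPL. CENPE, the kinetochore motor, was at 0.858 ± 0.468 CPM in DPL and 1.77 ± 0.436 CPM in L (log2 change -1.05 ± 0.31, adjusted p = 0.00815). CENPH, an inner kinetochore protein, was at 0.293, 0.369 and 0.708 CPM in DPL and at 0.542, 1.11 and 1.59 CPM in L (log2 change -1.26 ± 0.30, adjusted p = 0.00131). Here the upper DPL libraries reached into the L range. The other 7 tested kinetochore genes, CENPC, CENPI, CENPK, CENPP, CENPQ, CENPS and CENPU, had log2 changes of -0.36 to 0.97 and were not called. Per length, CENPK was far above CENPF, at a mean of 3.23 RPKM in DPL and 4.56 RPKM in L, against 0.0266 and 0.249 RPKM for CENPF. Unnamed loci overlap CENPF and CENPH in the annotation. They also overlap CDK1, NCAPD2 and MCM4, and transfer RNA genes overlap AURKB.

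Of the 5 tested genes of the spindle checkpoint and the anaphase-promoting complex, only the activator CDC20 was called. This is 20%, below the 38% of all tested genes. CDC20 was at 0, 0.0741 and 0.206 CPM in DPL and at 0.271, 0.542 and 1.35 CPM in L, and the groups did not overlap. Its log2 change was -2.97 ± 0.48 (adjusted p = 1.1e-05), on 292 reads over all 32 libraries, the fewest of any tested mitotic gene. The core subunits CDC16, CDC23 and CDC27 and the checkpoint protein BUB3 had log2 changes of -0.24 to 0.22 and were not called. BUB3 was at 41.8 ± 4.09 CPM in DPL and 40.5 ± 3.38 CPM in L, the highest CPM of the mitotic genes. BUB1 and BUB1B, the checkpoint kinase and its relative, were too low for the test.

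Of 7 tested kinases, cyclins and spindle proteins of mitosis, 4 were lower in DPL and 1 was higher, with a median log2 change of -0.88. This is 71.4% called, against 38% of all tested genes. AURKB, the kinase of the chromosomal passenger complex, was at 0.0907, 0.213 and 0.425 CPM in DPL and at 0.355, 0.597 and 1.23 CPM in L (log2 change -1.67 ± 0.34, adjusted p = 0.000246). CCNB1, the cyclin that drives entry into mitosis, was at 0.0732, 0.171 and 0.544 CPM in DPL and at 0.395, 0.789 and 1.14 CPM in L (log2 change -1.60 ± 0.38, adjusted p = 0.00123). In both genes the highest DPL library reached the lower L libraries and the other DPL libraries lay below all of L. CDK1, the kinase partner of cyclin B, was at 0.321 ± 0.156 CPM in DPL and 0.727 ± 0.311 CPM in L (log2 change -1.16 ± 0.38, adjusted p = 0.0161). CDC25B, the phosphatase that activates CDK1, was at 7.05 ± 2.09 CPM in DPL and 13.0 ± 2.16 CPM in L, a fall at a much higher level (log2 change -0.88 ± 0.15, adjusted p = 1.56e-05). All 12 mitotic falls kept their call when any 1 of the 32 libraries was left out. TPX2, which nucleates spindle microtubules, was at 8.91 ± 3.25 CPM in DPL and 7.02 ± 2.14 CPM in L and was not called (log2 change 0.34 ± 0.22, adjusted p = 0.219).

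**Figure D2:**
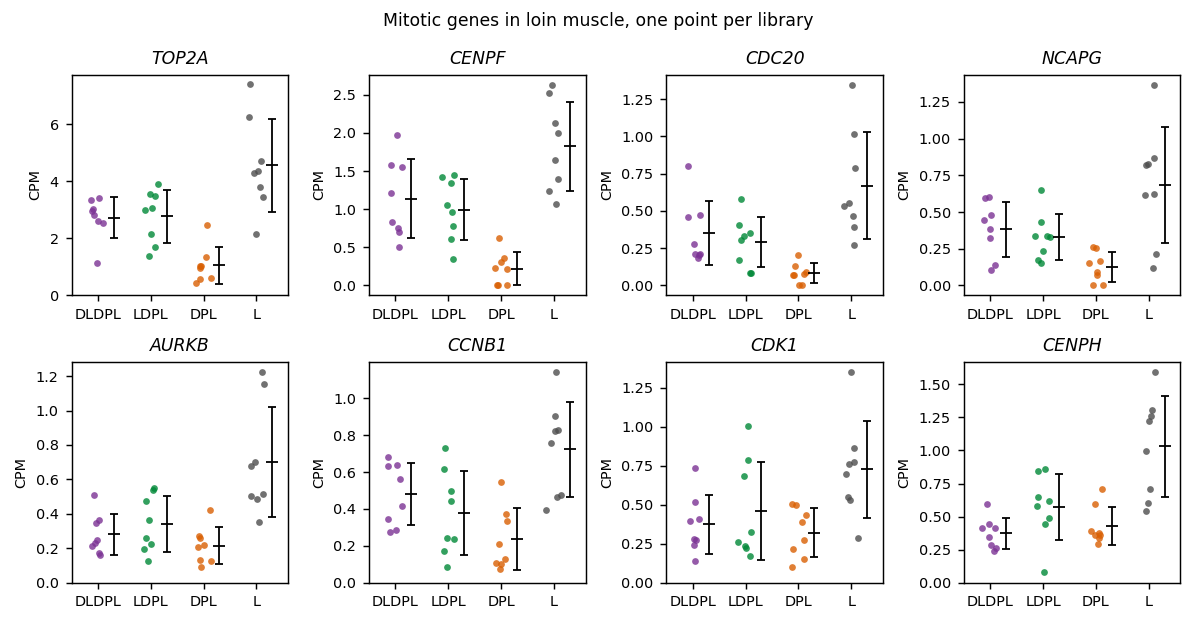
CPM of 8 mitotic genes that were lower in DPL than in L, 1 point per library, with mean and SD (n = 8) beside each group. For CENPF and CDC20 the DPL libraries lie below all L libraries, and for TOP2A the crosses lie between DPL and most of L.

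GTSE1, a microtubule-binding protein of G2 and mitosis, was the single mitotic gene called higher. It was at 0.225, 0.925 and 6.75 CPM in DPL and at 0.204, 0.497 and 0.864 CPM in L (log2 change 1.51 ± 0.57, adjusted p = 0.0338). DPL replicate 11 held the 6.75 CPM and the next DPL library 1.54 CPM. Without that library the log2 change was 0.55 and the call was lost, and it was also lost without L replicate 2, 4, 9 or 10.

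Too low to be tested were 7 mitotic genes, BUB1, BUB1B, CCNA1, CCNB2, CCNB3, CENPL and CENPT. Of these, 6 had their highest mean in L. CCNB2, the other main mitotic cyclin, was at 0, 0 and 0.0974 CPM in DPL and at 0.155, 0.326 and 0.468 CPM in L, with no read in 5 DPL libraries. BUB1B was at 0, 0 and 0.167 CPM in DPL and at 0.0561, 0.308 and 0.697 CPM in L. Without the filter on low counts both were called lower in DPL (log2 changes -3.30 and -2.95, adjusted p = 0.000107 and 0.00385), and the exact sizes of these changes depend on the treatment of the libraries at 0.

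The 4 replication genes lower in DPL were E2F1, CCNE2 and CDK3, of the 8 tested G1/S genes, and CDC45, of the 7 tested origin genes. E2F1, an activator of S-phase genes, was at 0.181, 0.234 and 0.465 CPM in DPL and at 0.204, 0.632 and 1.26 CPM in L (log2 change -1.37 ± 0.30, adjusted p = 0.000526). L replicate 10, at 0.204 CPM, lay among the DPL libraries. CCNE2, a cyclin of the G1/S boundary, was at 0.826, 1.18 and 2.25 CPM in DPL and at 1.42, 2.46 and 3.24 CPM in L (log2 change -0.97 ± 0.25, adjusted p = 0.00288). CDK3, a kinase of the exit from quiescence, was at 0.73 ± 0.555 CPM in DPL and 1.67 ± 0.49 CPM in L (log2 change -1.20 ± 0.35, adjusted p = 0.00641). CDC45, part of the active replication helicase, was at 2.16, 2.74 and 4.06 CPM in DPL and at 3.31, 4.46 and 6.67 CPM in L (log2 change -0.71 ± 0.17, adjusted p = 0.00171). INTS8 overlaps CCNE2 and TEN1 overlaps CDK3, and their reads could not be separated. E2F4, mainly a repressor in resting cells, was higher in DPL, at 20 ± 2.54 CPM against 14.4 ± 2.37 CPM in L (log2 change 0.47 ± 0.10, adjusted p = 0.000406).

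The tested MCM genes and most origin genes were not called. MCM6 and MCM7 of the replicative helicase had no matching identifier and are not analysed here, and the same holds for AURKA among the mitotic kinases. MCM2, MCM3 and MCM4, subunits of the replicative helicase, were at 0.508 ± 0.274, 1.49 ± 0.527 and 1.12 ± 0.408 CPM in DPL and at 0.898 ± 0.449, 2.12 ± 0.399 and 1.43 ± 0.441 CPM in L. Their log2 changes were -0.84 ± 0.40, -0.50 ± 0.24 and -0.37 ± 0.25 (adjusted p = 0.0963, 0.0984 and 0.242). All 5 tested MCM genes, with MCM8 and MCM9 of recombination repair, had a negative change, 0 were called, and 2 had an unadjusted p under 0.05. Counts by the other tools differed here: limma on log2(RPKM + 1) called MCM2 and MCM3 lower, and MCM2 was also called in edgeR without DPL replicate 16. The origin proteins ORC2 to ORC6 and the kinase CDC7 had log2 changes of -0.31 to 0.19 and were not called. ORC6 was at 1.03, 1.52 and 2.22 CPM in DPL and at 0.929, 1.29 and 2.21 CPM in L, nearly the same range. CCNE1, CDK4, CDC25A and E2F6, of the G1/S class, had log2 changes of -0.26 to 0.41 and were not called. Too low for the test were MCM5, ORC1, CDC6, E2F5, E2F7 and E2F8, of which E2F7 was called lower in DPL without the filter (log2 change -1.41).

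**Figure D3:**
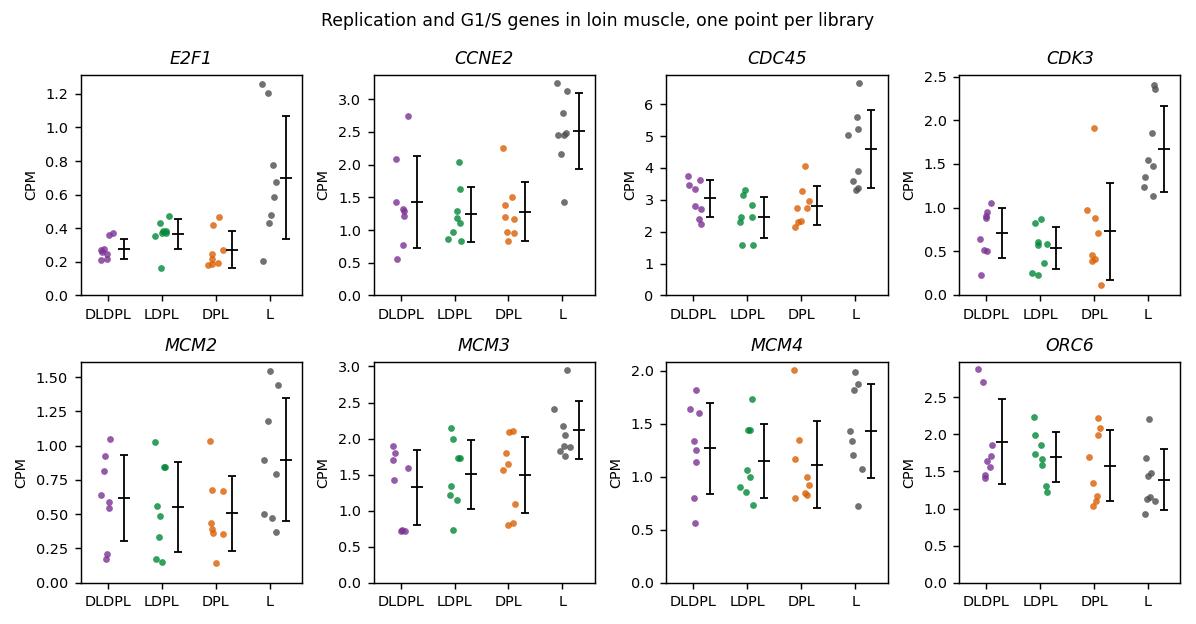
CPM of 8 replication and G1/S genes, 1 point per library, with mean and SD (n = 8). E2F1, CCNE2, CDC45 and CDK3 were lower in DLDPL, LDPL and DPL than in L, while ORC6 and MCM4 overlap across the groups.

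In LDPL against L, 10 of 29 mitotic genes were called, 3 higher and 7 lower, and 5 of 20 replication genes, all lower, with 29.6% of all tested genes called (14.9% higher and 14.7% lower). In DLDPL against L, 4 mitotic and 5 replication genes were called, all lower, with 21.9% of all genes called (11.6% higher and 10.3% lower). The shares for mitotic genes, 34.5% and 13.8%, lie on either side of these backgrounds. For replication genes the share was 25% in each comparison, near these backgrounds. These comparisons share the L libraries with the comparison of DPL, so they are set side by side only. The mitotic count in LDPL fell to 6 without L replicate 5, L replicate 10 or LDPL replicate 9, and the replication count in LDPL to 3 without L replicate 7.

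E2F1, CCNE2, CDC45 and CDK3 were lower than in L in each of the 3 groups with Dapulian ancestry. E2F1 was at 0.276 ± 0.0609 CPM in DLDPL, 0.366 ± 0.091 in LDPL, 0.273 ± 0.109 in DPL and 0.702 ± 0.369 in L. Its log2 changes against L were -1.34 ± 0.30 in DLDPL and -0.93 ± 0.29 in LDPL (adjusted p = 0.00136 and 0.0148), and the call of LDPL was lost without L replicate 7. CCNE2 was at 1.43 ± 0.70 CPM in DLDPL, 1.24 ± 0.416 in LDPL, 1.28 ± 0.451 in DPL and 2.51 ± 0.573 in L. CDC45 was at 3.04 ± 0.571 CPM in DLDPL, 2.46 ± 0.641 in LDPL, 2.82 ± 0.623 in DPL and 4.58 ± 1.23 in L. CDK3 was at 0.71 ± 0.283 CPM in DLDPL, 0.536 ± 0.238 in LDPL, 0.73 ± 0.555 in DPL and 1.67 ± 0.49 in L. For CCNE2, CDC45 and CDK3 the log2 changes against L were -0.82 ± 0.25, -0.59 ± 0.17 and -1.22 ± 0.35 in DLDPL (adjusted p = 0.0171, 0.0132 and 0.00992) and -1.01 ± 0.25, -0.90 ± 0.18 and -1.64 ± 0.35 in LDPL (adjusted p = 0.00275, 0.000225 and 0.000696). MCM3 was the only MCM gene called in any of the 6 comparisons, lower in DLDPL than in L (1.32 ± 0.516 against 2.12 ± 0.399 CPM, log2 change -0.67 ± 0.24, adjusted p = 0.0436), a call lost when any of 9 libraries was left out. ORC5, an origin protein, was lower in LDPL than in L (5.03 ± 0.934 against 6.64 ± 1.28 CPM, log2 change -0.40 ± 0.15, adjusted p = 0.039), a call lost in 8 such fits.

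Among mitotic genes, CDC25B, AURKB and CENPH were lower than in L in both crosses. CDC25B was at 8.24 ± 1.44 CPM in DLDPL and 8.58 ± 1.04 CPM in LDPL, against 13.0 ± 2.16 CPM in L (log2 changes -0.65 ± 0.14 and -0.60 ± 0.14, adjusted p = 0.00133 and 0.00213). AURKB was at 0.281 ± 0.118 CPM in DLDPL and 0.341 ± 0.165 CPM in LDPL, against 0.703 ± 0.32 CPM in L (log2 changes -1.31 ± 0.33 and -1.03 ± 0.33, adjusted p = 0.00446 and 0.0163). CENPH was at 0.375 ± 0.118 CPM in DLDPL and 0.57 ± 0.248 CPM in LDPL, against 1.03 ± 0.38 CPM in L (log2 changes -1.45 ± 0.31 and -0.86 ± 0.30, adjusted p = 0.00082 and 0.0281). In LDPL the call of CENPH was lost without L replicate 5, L replicate 10 or LDPL replicate 9. NCAPD2 of condensin I was lower in LDPL than in L, at 5.72 ± 0.667 against 9.71 ± 1.92 CPM (log2 change -0.76 ± 0.15, adjusted p = 0.000269), and was at 7.90 ± 1.95 CPM in DLDPL and 8.16 ± 1.96 CPM in DPL. CDC20 was lower in LDPL than in L (log2 change -1.18 ± 0.41, adjusted p = 0.0274), a call lost without L replicate 9 or 10 or LDPL replicate 4, 8 or 24. CDC23 was also called lower there (log2 change -0.36 ± 0.14, adjusted p = 0.0467), a call lost in 17 of 32 such fits.

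Against DPL itself, both crosses had more transcript of a few mitotic genes. In LDPL against DPL, 8 of the 81 cell division genes were called, 7 higher and 1 lower, all of them mitotic, whereas 2.85% of all tested genes were called (1.29% higher and 1.56% lower). In DLDPL against DPL, 6 were called, of which 4 mitotic genes were higher and the replication gene E2F4 and CDK2AP2, a CDK2-associated protein, were lower, with 4.1% of all genes called (1.98% higher and 2.12% lower). The E2F4 call (adjusted p = 0.0386) was lost in 9 of 32 fits without 1 library, without the filter and on both RPKM scales. TOP2A was at 1.14, 2.89 and 3.42 CPM in DLDPL, at 1.38, 3.04 and 3.90 CPM in LDPL and at 0.454, 1 and 2.48 CPM in DPL. Most libraries of both crosses lay above all but the highest DPL library. The log2 changes against DPL were 1.36 ± 0.29 in DLDPL and 1.39 ± 0.29 in LDPL (adjusted p = 0.00496 and 0.00695). CENPF was at 0.50, 1.02 and 1.97 CPM in DLDPL, at 0.339, 1.01 and 1.45 CPM in LDPL and at 0, 0.219 and 0.617 CPM in DPL. Its log2 changes were 2.32 ± 0.46 in DLDPL and 2.14 ± 0.46 in LDPL (adjusted p = 0.00328 and 0.0109). Both genes kept these calls without any 1 library, and CENPF lost them on log2(RPKM + 1). The cause of this loss was not tested. Against L, TOP2A was 1.67-fold lower in DLDPL and 1.64-fold lower in LDPL (adjusted p = 0.0446 and 0.0427), calls lost in 11 and 9 of 32 fits without 1 library, and CENPF was not called.

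CENPK, an inner kinetochore protein, was at 7.56 ± 1.63 CPM in DLDPL, 6.68 ± 0.884 in LDPL and 4.32 ± 0.793 in DPL (log2 changes against DPL 0.81 ± 0.17 and 0.63 ± 0.17, adjusted p = 0.00523 and 0.0392). L, at 5.56 ± 1.76 CPM, was below both crosses for this gene, and ADAMTS6 overlaps it. CDC20 was at 0.354 ± 0.216 CPM in DLDPL, 0.29 ± 0.169 in LDPL and 0.0808 ± 0.0671 in DPL (log2 changes 2.05 ± 0.50 and 1.79 ± 0.50, adjusted p = 0.0156 and 0.0471), and both calls were lost on both RPKM scales. NCAPH was higher in LDPL than in DPL (0.971 ± 0.442 against 0.509 ± 0.141 CPM, adjusted p = 0.0499), at the very edge of the threshold. The calls of CENPK, CDC20 and NCAPH in LDPL were lost in 13, 19 and 26 of the 32 fits that leave out 1 library. The count of 8 was 2 without LDPL replicate 5 or DPL replicate 21, and 3 without DPL replicate 7, DPL replicate 23 or LDPL replicate 10. It was 4 without DPL replicate 30 or LDPL replicate 9, and 5 without DPL replicate 11, DPL replicate 19, LDPL replicate 14, LDPL replicate 15 or LDPL replicate 24.

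**Figure D4:**
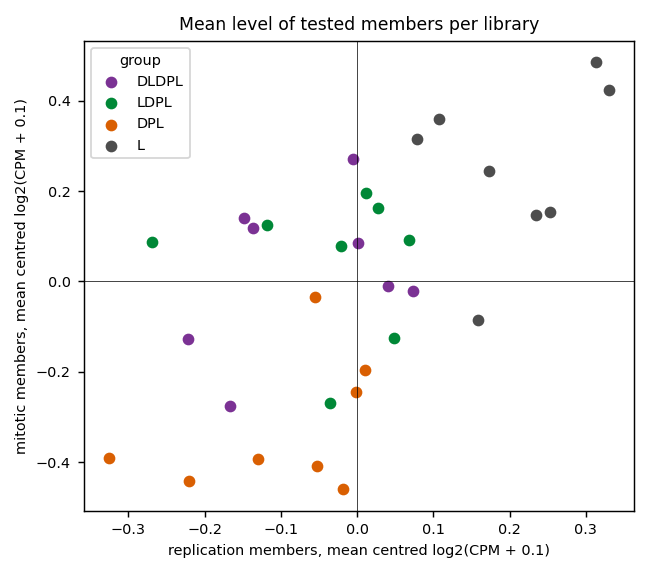
Mean over the 29 tested mitotic genes (vertical axis) and the 20 tested replication genes (horizontal axis) of log2(CPM + 0.1), each gene centred over the 32 libraries, 1 point per library. The L libraries lie to the right, between 0.0786 and 0.331, and DPL lies lowest, between -0.46 and -0.0353 on the mitotic axis. The 2 crosses overlap each other. On the mitotic axis they lie mostly between DPL and L but reach into the DPL range, and on the replication axis they overlap DPL.

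Averaged per library, the mitotic genes were lowest in DPL, with a small overlap with L. For the replication genes all L libraries lay above all others, by a narrow margin. The lowest L library, replicate 5, was at 0.0786 and the highest other library, DLDPL replicate 6, at 0.0733. The mean centred log2 level of the mitotic genes was 0.02 ± 0.17 in DLDPL, 0.04 ± 0.16 in LDPL, -0.32 ± 0.15 in DPL and 0.26 ± 0.18 in L. That of the replication genes was -0.07 ± 0.11 in DLDPL, -0.04 ± 0.11 in LDPL, -0.10 ± 0.12 in DPL and 0.21 ± 0.09 in L. These means describe the libraries and carry no test. Over the 32 remaining tested genes the means were within 0.04 of 0 in every group.

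Between DLDPL and LDPL, 0 of the 81 genes were called by edgeR or DESeq2, with 7 at an unadjusted p under 0.05, and 0% of all tested genes were called by edgeR, with 969 at an unadjusted p under 0.05. DESeq2 called 33 genes of all and edgeR without the filter 2.

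Some mitotic genes were uneven within groups. CENPU, an inner kinetochore protein, was at 9.85 and 16.4 CPM in LDPL replicates 5 and 10 and at 12.1 CPM in DLDPL replicate 32. In the other 29 libraries it lay between 0.671 and 2.72 CPM. It was called higher in LDPL than in DPL and L (log2 changes 1.81 ± 0.50 and 1.76 ± 0.49, adjusted p = 0.0433 and 0.00707). Without LDPL replicate 10 the changes were 1.18 and 1.13 and neither was called, and PRIMPOL overlaps CENPU. CENPS, which also serves DNA repair, was at 6.11 and 6.31 CPM in DLDPL replicates 20 and 18 and at 6.17 CPM in DPL replicate 23, and at most at 1.68 CPM elsewhere. No pair of groups was called for it. CDC14A, a phosphatase, split the LDPL libraries into 3 between 4.50 and 5.53 CPM and 5 between 10.8 and 18.9 CPM. Its mean was 10.8 ± 5.35 CPM in LDPL, against 5.82 ± 1.83 CPM in DPL and 6.27 ± 1.26 CPM in L (log2 changes 0.90 ± 0.23 and 0.79 ± 0.23, adjusted p = 0.0349 and 0.0104), and both calls were lost on RPKM. The high libraries of these 3 genes were different ones, except that LDPL replicates 5 and 10 were the highest for both CENPU and CDC14A.

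GTSE1 was at 0.203, 1.54 and 3.01 CPM in LDPL and 0.204, 0.497 and 0.864 CPM in L (log2 change 1.5 ± 0.57, adjusted p = 0.0437), a call lost in 10 of 32 fits without 1 library and on both RPKM scales. TPX2 was lower in LDPL than in DPL, at 3.35, 3.94 and 7.93 CPM against 5.27, 9.25 and 14.1 CPM (log2 change -0.85 ± 0.22, adjusted p = 0.0348). This call was lost in 6 such fits and on both RPKM scales, and the LDPL libraries fell mostly below the DPL range.

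**Figure D5:**
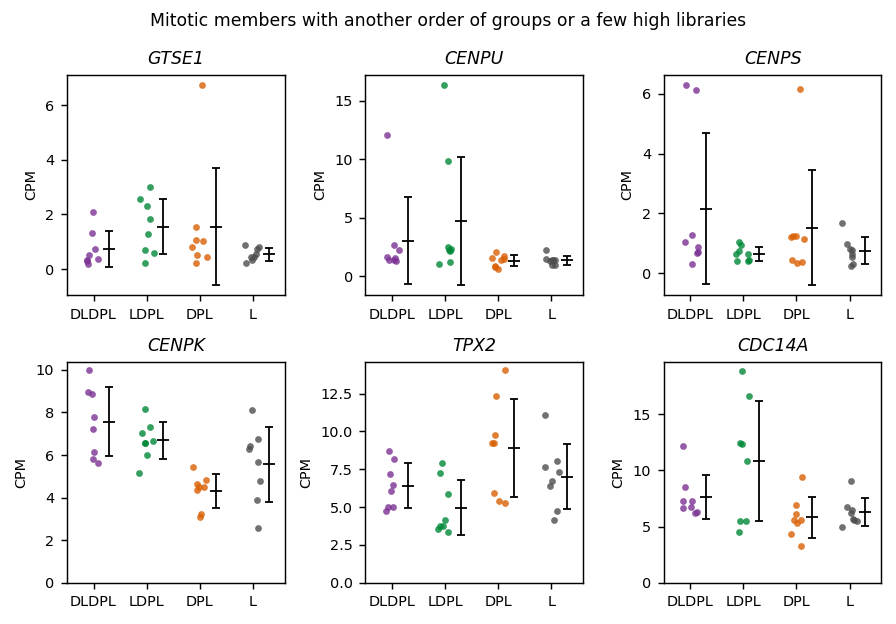
CPM of 6 mitotic genes that depart from the order DPL below crosses below L, 1 point per library, with mean and SD (n = 8). Single libraries reach 6.75 CPM for GTSE1, 16.4 CPM for CENPU and 6.31 CPM for CENPS, and LDPL splits for CDC14A.

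The 34 genes that share a family name but mostly act elsewhere had no common direction. Of the 32 tested, 4 were higher and 3 lower in DLDPL than in L (21.9% called, as over all genes), 4 higher and 4 lower in LDPL than in L (25%, against 29.6% over all genes), and 6 higher and 6 lower in DPL than in L (37.5%, against 38%). CDC37L1, a relative of the HSP90 cochaperone CDC37, was at 110 ± 32.5 CPM in DLDPL, 122 ± 23.5 in LDPL, 104 ± 36.8 in DPL and 50.1 ± 11.9 in L. Its log2 changes against L were 1.14 ± 0.20, 1.29 ± 0.20 and 1.05 ± 0.20 (adjusted p = 8.56e-05, 9.13e-06 and 8e-05), and AK3 and SPATA6L overlap it. CDC40, a splicing factor, was higher than in L in all 3 groups (log2 changes 0.47, 0.52 and 0.41 in DLDPL, LDPL and DPL, adjusted p = 0.00133, 0.000249 and 0.00191), and its DPL call was lost on RPKM. WASF1 overlaps CDC40. CDC42, a GTPase of the actin cytoskeleton, was at 192 ± 24.3 CPM in DLDPL, 185 ± 18.4 in LDPL, 173 ± 20.9 in DPL and 151 ± 8.09 in L, called in both crosses (log2 changes 0.35 and 0.29, adjusted p = 0.00344 and 0.00915) and, in LDPL, not on RPKM. Its effector kinase CDC42BPA was lower, at 36 ± 5.04, 36.8 ± 5.4 and 30.4 ± 4.71 CPM in DLDPL, LDPL and DPL and 47.8 ± 3.2 CPM in L (log2 change -0.65 ± 0.10 in DPL, adjusted p = 4.44e-06). The transcription kinases CDK7, CDK8, CDK9, CDK12 and CDK13 had no call in DPL against L. CDK2AP2 was higher in DPL than in L (18.3 ± 3.16 against 13.8 ± 2.54 CPM, adjusted p = 0.00568), a call lost on both RPKM scales, and lower in DLDPL than in DPL (11.8 ± 1.22 CPM in DLDPL, log2 change -0.64 ± 0.12, adjusted p = 0.00175).

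Other proliferation genes, outside the symbol families, were read in the same way from a list of 74 symbols, of which 44 were tested. In DPL against L, 17 were lower and 4 higher (47.7% called, against 38% of all tested genes), with a median log2 change of -0.41. The mitotic kinesins led the falls: KIF20A was at 0, 0.149 and 0.619 CPM in DPL and at 0.482, 1.09 and 1.72 CPM in L (log2 change -2.37 ± 0.43, adjusted p = 5.7e-05). KIF11 had a log2 change of -1.72 ± 0.33 and KIF23 of -1.77 ± 0.36 (adjusted p = 0.000128 and 0.000196). KIF20A overlaps CDC23 in the annotation. GMNN, the geminin that blocks relicensing of origins, was higher in DPL, at 14.3 ± 2.52 CPM against 8.33 ± 0.953 CPM in L (log2 change 0.78 ± 0.11, adjusted p = 1.78e-06). In DLDPL and in LDPL against L, 6 of the 44 were lower and 2 higher in each, or 18.2%, which is below the 21.9% and 29.6% of all tested genes. MKI67 and PCNA had no matching identifier and are not analysed here. Of 8 tested cycle inhibitors and related genes, 2 were higher and 1 lower in DPL than in L (37.5% called, as over all tested genes at 38%). Changes were negative in 5 of the 8. GADD45B, a stress-induced growth arrest gene, was higher in DPL than in L (42.0 ± 18.4 against 7.76 ± 2.55 CPM, log2 change 2.44 ± 0.32, adjusted p = 4.56e-07) and CDKN2D, an inhibitor of CDK4 and CDK6, was higher by 0.45 ± 0.14 (adjusted p = 0.00882). CCNG2, a cyclin linked to arrest, was lower (9.68 ± 3.34 against 24.3 ± 4.28 CPM, log2 change -1.33 ± 0.19, adjusted p = 1.96e-06).

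Marker lists of the other cell types in muscle are given beside these genes, and their part in the results was not tested. Over all tested genes, 38% were called in DPL against L, 29.6% in LDPL against L and 21.9% in DLDPL against L. Of 7 tested fibroblast and matrix genes, 5 were lower in DPL than in L and 0 higher, 3 were lower in LDPL than in L, and 0 of 7 were called in DLDPL against L. Their summed level was 964 to 2166 CPM in DLDPL, 567 to 1645 in LDPL, 356 to 1403 in DPL and 1320.2 to 2335 in L. COL3A1, a fibrillar collagen, was also lowest in DPL and highest in L, at 710 ± 282 CPM in DLDPL, 518 ± 195 in LDPL, 231 ± 114 in DPL and 1034 ± 225 in L. Against DPL it was higher in DLDPL (log2 change 1.62 ± 0.29, adjusted p = 0.00153) and in LDPL (1.17 ± 0.29, adjusted p = 0.0243). Of 9 tested satellite cell and myoblast genes, CDH15, MYMK, MYOD1, MYH3 and VCAM1 were lower in DPL than in L and DES was higher, while their sum, most of it DES, was 3956 to 7252 CPM in DLDPL, 5137 to 8345 in LDPL, 5768 to 11097 in DPL and 4088 to 6254 in L.

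Lymphocyte markers were low throughout, with 3 of 7 tested genes lower in DPL than in L (CD3D, CD4 and CD8A). These are 42.9%, near the 38% called over all tested genes. Their sums were 5.87 to 11.7 CPM in DLDPL, 7.95 to 23.5 in LDPL, 5.24 to 21.3 in DPL and 6.89 to 44.8 in L. Of the macrophage genes 0 of 5 were called, with sums of 26.5 to 61.3 CPM in DLDPL, 28.5 to 93.5 in LDPL, 32.7 to 87.8 in DPL and 16.8 to 130 in L. The upper end in L for both lists was replicate 2. Without that library the 12 mitotic falls in DPL and those of E2F1, CCNE2, CDC45 and CDK3 were still called. Of 8 endothelial genes 3 were lower and 0 higher in DPL than in L, and of 7 mural genes 3 were lower and 2 higher. The endothelial share called, 37.5%, was that of all tested genes (38%), and the mural share was 71.4%. Of the adipocyte genes 1 of 5 was higher and 1 lower, and of the erythroid and the Schwann cell genes 0 of 2 each were called. Of 9 fibre genes 5 were lower in DPL than in L, ACTA1 among them (log2 change -0.81 ± 0.23, adjusted p = 0.00534), and 1 was higher. Their summed level was 93959 to 150070 CPM in DLDPL, 110160 to 157580 in LDPL, 79178 to 139400 in DPL and 74555 to 197160 in L. PAX7, PDGFRA and CD163, defining markers of satellite cells, fibroblasts and macrophages, had no matching identifier and are not analysed here.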

How the data were processed

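RNA-seq of longissimus dorsi from 32 pigs (8 per breed group) was used as deposited. Per the file headers, each table holds the authors' read counts per gene, from uniquely mapped reads, beside RPKM values, which divide these counts by gene length and library total. Bowtie 0.12.2, Cufflinks and mm8, a mouse build, are listed per the submitters' processing notes, and the pig build is not given in the sources used here. The kit named in the labels' protocols does not mark strand. Symbols came from the reference gene tables (60.4% of identifiers, with 14.5% of reads on identifiers without one), and 23 of the 119 symbols in these tables that match the name rule were in no library.

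From the counts, edgeR 4.0.16 (R 4.3.3, TMM, filterByExpr with a minimum count of 10 and a minimum total of 15) fitted all 32 libraries together with a quasi-likelihood test and Benjamini-Hochberg adjustment. SEs were derived from each log2 change and its F statistic (|log2 change|/√F). RPKM was used to compare genes per length and in limma 3.58.1 on log2(RPKM + 1) and log2(RPKM + 0.1). Alternatives were RLE scaling, DESeq2 1.42.0, no filter, a stricter filter (1 CPM in 8 libraries), a replicate block, and each library left out. Fits were tested on simulated data. No library pair within a group agreed within sampling noise (smallest chi-square per degree of freedom 33.7). The marker and pathway lists, like the members, were chosen with earlier results known. Values in full are given for called genes with the smallest adjusted p in each class and for a fixed set of cycle genes, and others are given by range. The deposited coverage, the percent of a gene's length with reads, gave a median per library over genes of at least 3000 bases. Counts of 0 and their floors of 3 reads cover counting error only.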

Additional observations from a re-analysis of the deposited data

Results flagged for a closer look

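Over the 81 tested genes, 324 groups of 8 libraries were examined, and in 25 of them 1 library stood apart from the other 7 by Dixon's test. Chance gives about 1 in 20 groups where levels are normally distributed. The CPM were not transformed, and most flagged libraries were the highest of their group, so an excess over chance cannot be read from this count.

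Among mitotic genes, TOP2A was low in DLDPL replicate 28 at 1.142 CPM (next 2.545 CPM) and high in DPL replicate 16 at 2.478 CPM (next 1.364 CPM). GTSE1 was high in DPL replicate 11 at 6.755 CPM (next 1.537 CPM), and CDC20 in DLDPL replicate 25 at 0.8046 CPM (next 0.4749 CPM). CENPU was high in DLDPL replicate 32 at 12.09 CPM (next 2.723 CPM) and in L replicate 7 at 2.232 CPM (next 1.447 CPM). CENPS was high in DPL replicate 23 at 6.174 CPM (next 1.239 CPM), and CENPE in LDPL replicate 24 at 2.917 CPM (next 1.464 CPM). CENPC was low in DLDPL replicate 32 at 8.247 CPM (next 9.749 CPM). CDC14A was high in DLDPL replicate 29 at 12.17 CPM (next 8.515 CPM) and in L replicate 9 at 9.06 CPM (next 6.752 CPM). BUB3 was high in DLDPL replicate 18 at 52.46 CPM (next 40.49 CPM).

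Among replication genes, both E-type cyclins were high in DPL replicate 19, CCNE1 at 5.438 CPM (next 3.539 CPM) and CCNE2 at 2.25 CPM (next 1.497 CPM). MCM4 was high in DPL replicate 16 at 2.013 CPM (next 1.345 CPM), and E2F6 in DPL replicate 23 at 78.37 CPM (next 51.94 CPM). E2F1 was low in LDPL replicate 10 at 0.1622 CPM (next 0.3546 CPM).

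Among the remaining genes, CDK10 and CDK2AP1 were high in DPL replicate 23 at 31.41 and 15.44 CPM (next 23.33 and 9.074 CPM). CDC37, an HSP90 cochaperone, and CENPJ, a centriole protein, were high in DLDPL replicate 32 at 116.2 and 2.461 CPM (next 95.59 and 1.928 CPM). CDK7 was high in LDPL replicate 15 at 14.0 CPM (next 11.02 CPM) and CDK17 low in LDPL replicate 24 at 1.973 CPM (next 3.286 CPM). CDC42EP3, an effector of CDC42, was high in L replicate 4 at 15.71 CPM (next 12.05 CPM), and CDK14 in L replicate 2 at 1.962 CPM (next 1.165 CPM).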

How the results depend on the processing

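Single genes were followed across runs for called cell division genes and, in DPL against L, a fixed set of cycle genes. None of these log2 changes reversed. Other log2 changes named above were not checked for reversal. Of the values of single genes, 3066 kept their side of the threshold, 4 gained a call (MCM2 and MCM3, DPL against L) and 299 lost one. Of the 81 genes, limma on log2(RPKM + 1) called 2 in LDPL against DPL (8 in edgeR) and 3 in DLDPL against DPL (6 in edgeR), and it called 8 replication genes in DPL against L (5 in edgeR). On log2(RPKM + 0.1) the count in LDPL against DPL was 3. The stricter filter tested fewer genes and called 8 mitotic genes in DPL against L (13 without it) and 2 in DLDPL against L (4 without it). The cause of the shifts on RPKM was not tested.

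Leaving out 1 library gave 30 to 36 called genes in DPL against L, 17 to 25 in LDPL against L, 14 to 17 in DLDPL against L, 2 to 8 in LDPL against DPL, 5 to 7 in DLDPL against DPL, 0 in DLDPL against LDPL and 30 to 35 over the 4 groups. For mitotic genes the ranges were 12 to 15 in DPL, 6 to 12 in LDPL and 3 to 6 in DLDPL, each against L. For replication genes they were 5 to 8 in DPL (8 without DPL replicate 16), 3 to 6 in LDPL (3 without L replicate 7) and 4 to 5 in DLDPL.

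LDPL and L share the numbers 4, 5, 8, 9 and 10, and the deviations of same-numbered libraries correlated at -0.008, 0.018, 0.091, -0.051 and -0.023, so the numbers were not taken to pair pigs. On these 10 libraries 11 genes were called with the replicate block and 12 with no replicate block (23 on all libraries), and for replication genes 1 with the block and 2 without it (5 on all libraries). The other pairs of groups share at most 1 number. Genes with few reads are limited by depth: a count of 0 allows up to 0.0841 to 0.162 CPM.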
